A study of Mus musculus with 6 samples.

Results

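The genes described here encode the ligands, receptors, intracellular carriers, inhibitors and direct targets of the TGF-beta and BMP signalling family. They were taken by symbol: the transforming growth factors beta, the bone morphogenetic proteins (Bmp), the growth differentiation factors (Gdf), the inhibin and activin subunits, their receptors, the Smad genes, the Id genes, and the gremlin, noggin, follistatin, follistatin-like and latent TGF-beta binding protein genes. The rule found 65 genes among the 23337 gene symbols counted. RNA came from whole pancreas of NMRI mouse embryos at stage E13.5. Mutant pools came from embryos whose genotype the labels give as Prox1-nullyzygous, written Prox1 GFPCre/D in the design text, and control pools came from wildtype embryos. The mutants, unlike the controls, therefore carry the GFPCre allele, and what stretch of Prox1 each mutant allele lacks is not stated in the labels. The Prox1 protein is a transcription factor with a homeodomain, present in progenitors of the pancreas. There were 3 mutant and 3 control libraries, each made from a pool of 5 to 6 pancreata of mixed cell types.

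Ligands of this family are secreted as dimers that bring together a type II and a type I receptor, both of them serine/threonine kinases. The type I receptor then phosphorylates receptor-regulated SMAD proteins, which join SMAD4 and act on genes in the nucleus. TGF-beta and activin receptors use SMAD2 and SMAD3, whereas BMP receptors use SMAD1, SMAD5 and SMAD9, and the Id genes are textbook targets of the BMP branch. In the embryonic pancreas the family is known for signals between mesenchyme and epithelium that weigh on the choice between endocrine and exocrine fate.

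The libraries held 16060424 to 17633867 counted reads, and 1 CPM (reads of a gene relative to the scaled size of its library) stood for 15.9 to 17.5 reads. The labelled tissue was checked on 8 markers of pancreatic epithelium, all of which were tested, and Pdx1, the homeobox gene of the pancreatic bud, read 33.6 to 45.8 CPM in mutant pools and 49.7 to 51.4 CPM in control pools. Prox1 itself had 1330, 1774 and 1602 reads in mutant pools 1 to 3 and 1764, 1687 and 1824 reads in control pools 1 to 3. Its reads do not check the genotype labels, because the deleted part is not stated. Xist, the RNA of the inactive X chromosome, had 2 reads in mutant pool 1 and 9 in control pool 3, against at least 33297 in every other pool. Control pool 2 stood apart in smooth muscle transcripts and in the foregut gene Sox2, with 73.6 CPM of the smooth muscle myosin gene Myh11, where the other pools held at most 6.54 CPM.

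Of the 65 genes, 52 had enough reads to be tested. In the comparison of mutant with control pools, edgeR called 11 of them higher and 3 lower in mutants at an adjusted p under 0.05, and 38 were not called. Over all 14687 genes tested, 7.95% were called, 3.67% higher and 4.28% lower. The members called higher that are described here were the ligand genes Tgfb2, Tgfb3, Inhbb, Bmp5, Bmp6, Gdf6 and Gdf10, the follistatin-like gene Fstl1, the inhibitory SMAD gene Smad7 and the target gene Id3. Those called lower were the target gene Id4, the activin-binding gene Fstl3 and the receptor gene Acvr1c. The median log2 fold change was 0.12 over the 52 tested members and 0.00055 over all tested genes. In 23 of the 52 the mutant and control values did not overlap, a pattern found in 26.4% of all tested genes. Without both pools of almost no Xist reads, mutant pool 1 and control pool 3, 4 members were called higher, among them Tgfb2, Tgfb3 and Gdf6, and 1 lower, Id4. Without control pool 2, 10 were called higher and 3 lower, Bmp6 being lost. In RNA of a whole organ, fewer cells of a type and less RNA per cell cannot be told apart.

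**Figure D1:**
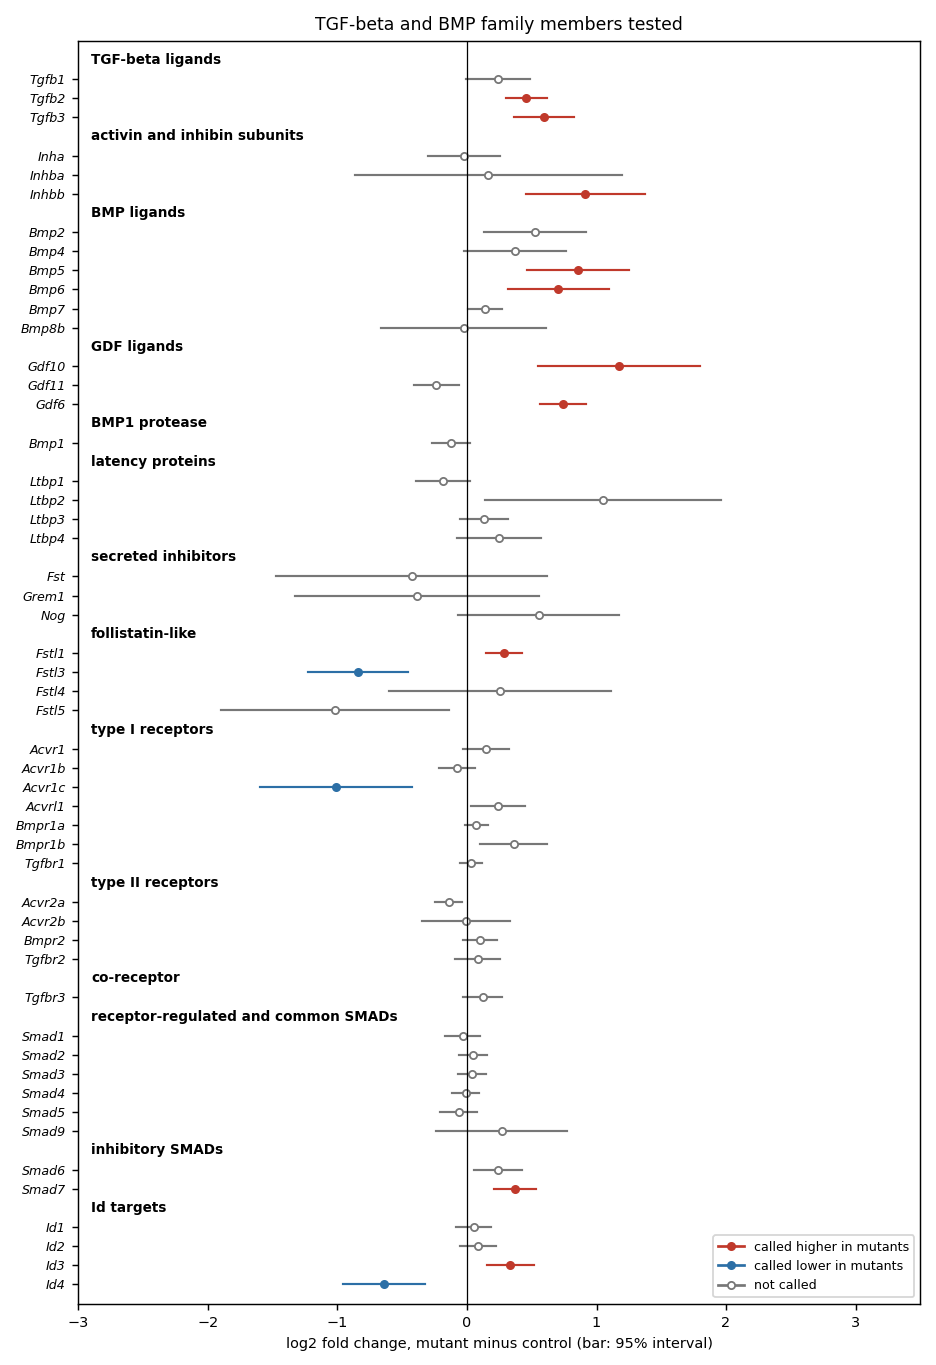
Log2 fold change, mutant minus control, of 51 tested members in blocks by role, with points for the estimate, bars for its 95% interval and colours for the call. The called points stand mostly among the ligands and secreted proteins, and the intervals of the receptors and of the SMADs that carry the signal lie close to 0 except for Acvr1c, Bmpr1b and Smad9.

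The promoter windows of 3 genes are shown because they belong to called members of different roles and lie outside every annotated exon: Gdf10 and Inhbb, 2 ligand genes called higher, and Id4, the target gene called lower. Each is the 250 bases before the RefSeq start on GRCm38.p6, printed 5′ to 3′ on the gene's own strand, at chr14:33923337-33923586 on the plus strand for Gdf10, chr1:119422249-119422498 on the minus strand for Inhbb and chr13:48260866-48261115 on the plus strand for Id4. Capitals mark CAGAC, the box that SMAD3 and SMAD4 bind, and GGCGCC and GGAGCC, GC-rich elements of BMP-responsive SMADs, searched on both strands.
Gdf10: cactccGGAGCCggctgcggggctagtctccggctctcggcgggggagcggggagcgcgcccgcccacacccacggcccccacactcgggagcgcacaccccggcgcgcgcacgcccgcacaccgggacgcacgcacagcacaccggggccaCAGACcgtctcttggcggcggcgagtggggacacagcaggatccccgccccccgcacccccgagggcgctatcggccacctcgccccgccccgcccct
Inhbb: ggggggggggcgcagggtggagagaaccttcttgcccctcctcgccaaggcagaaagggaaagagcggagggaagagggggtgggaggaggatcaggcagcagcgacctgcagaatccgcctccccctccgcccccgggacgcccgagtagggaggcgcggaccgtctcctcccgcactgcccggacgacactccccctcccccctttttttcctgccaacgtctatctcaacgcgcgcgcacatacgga
Id4: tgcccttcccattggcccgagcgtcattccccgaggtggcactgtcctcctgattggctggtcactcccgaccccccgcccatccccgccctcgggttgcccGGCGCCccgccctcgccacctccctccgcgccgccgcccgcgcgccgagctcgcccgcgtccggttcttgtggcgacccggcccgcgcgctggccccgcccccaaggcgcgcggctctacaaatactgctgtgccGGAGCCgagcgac
The Gdf10 window held 1 CAGAC and 1 GGAGCC, the Id4 window held 1 GGCGCC and 1 GGAGCC, and the Inhbb window held none of the 3 motifs. No 2 matches overlapped. Among 32851 RefSeq promoter windows of the same length, 42.2% held CAGAC, 9.59% held GGCGCC and 26% held GGAGCC. Such a match is a description of the letters and not evidence of binding. RefSeq windows were at hand for 47 of the 65 genes and for 10 of the 14 called members, and 3 of these 10 lay outside annotated exons.

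Ligand genes were higher in mutants wherever they were called. Of 28 ligand and ligand subunit genes, 15 were tested, 7 were called higher, 0 lower and 8 not called, with a median log2 fold change of 0.46 over the 15. The TGF-beta isoform genes Tgfb2 and Tgfb3, the activin beta B subunit gene Inhbb, and Bmp5, Bmp6, Gdf6 and Gdf10 made up the called set. Their increases ran from 1.37-fold for Tgfb2 to 2.26-fold for Gdf10.

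Among the TGF-beta isoforms, Tgfb2 (chromosome 1, 186622792 to 186705989, minus strand, GENCODE M21 on GRCm38) stood at 42.4, 41.3 and 42.5 CPM in mutant pools 1 to 3, against 29.3, 33.6 and 29.0 CPM in control pools 1 to 3. Every mutant pool lay above every control pool, and the mutant values were nearly equal to each other. edgeR put the log2 fold change at 0.46 (SE 0.0702, edgeR adjusted p = 0.0053). Tgfb3 (chromosome 12, 86056745 to 86079041, minus strand) stood at 40.5, 38.6 and 33.9 CPM in mutant pools, against 26.6, 26.8 and 21.4 CPM in control pools. Its groups did not overlap either, and the lowest mutant pool was still above the highest control pool. The log2 fold change of Tgfb3 was 0.59 (SE 0.102, edgeR adjusted p = 0.00897). Both calls held under every alternative tried. Tgfb1, the isoform gene best known for immune cells and fibrosis, read 22.8 ± 2.68 CPM in mutants and 19.3 ± 1.86 CPM in controls (SD, n = 3 each), with overlapping groups and a log2 fold change of 0.24 (95% interval -0.0077 to 0.49) that was not called.

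Gdf6 (chromosome 4, 9844372 to 9862345, plus strand) encodes a BMP-like ligand known for joint and eye formation. It had 60.9, 66.0 and 65.5 CPM in mutant pools, against 36.9, 42.9 and 35.1 CPM in control pools. The mutant values were well separated from the control values, with the smallest adjusted p of the family. Its log2 fold change was 0.74 (SE 0.0787, edgeR adjusted p = 0.000934), a 1.68-fold increase, and the call held under every alternative. Gdf10 (chromosome 14, 33923587 to 33937983, plus strand), also called Bmp3b, had 11.2, 11.5 and 6.52 CPM in mutant pools, against 5.25, 4.87 and 2.81 CPM in control pools. The groups did not overlap, but mutant pool 3 and control pool 3 each stood well below the other pools of their group. The log2 fold change of Gdf10 was 1.17 (SE 0.275, edgeR adjusted p = 0.034). This call was lost with limma voom (adjusted p = 0.0501) and without mutant pool 1 (0.0984), mutant pool 2 (0.119), control pool 1 (0.0626) or control pool 3 (0.0755).

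Bmp5 and Bmp6 encode closely related BMP ligands. Bmp5 (chromosome 9, 75775364 to 75900310, plus strand) had 8.36, 6.19 and 7.495 CPM in mutant pools, against 4.48, 4.32 and 3.33 CPM in control pools, with no overlap. Of its annotated exon, 46.7% overlaps Gm26903 on the other strand, which has no count of its own here. The log2 fold change of Bmp5 was 0.86 (SE 0.174, edgeR adjusted p = 0.0184), and it was no longer called without mutant pool 1 (adjusted p = 0.0616), mutant pool 3 (0.0603) or control pool 3 (0.0528). Bmp6 (chromosome 13, 38345107 to 38500302, plus strand) had 10.9, 10.8 and 7.90 CPM in mutant pools, against 6.81, 4.93 and 6.37 CPM in control pools. The lowest mutant pool lay only a little above the highest control pool. Its log2 fold change was 0.71 (SE 0.173, edgeR adjusted p = 0.0399). When 1 pool was left out, the log2 fold change of Bmp6 stayed between 0.58 and 0.85, but the call held only without mutant pool 3. The adjusted p was 0.1195 without mutant pool 1, 0.141 without mutant pool 2, 0.0714 without control pool 1, 0.0754 without control pool 2 and 0.0799 without control pool 3. With limma voom it was 0.0502.

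Inhbb (chromosome 1, 119415465 to 119422248, minus strand), whose product forms activin B, had 4.40, 5.01 and 4.35 CPM in mutant pools, against 2.03, 3.11 and 2.16 CPM in control pools. All mutant pools were higher than all control pools. The log2 fold change was 0.91 (SE 0.202, edgeR adjusted p = 0.0269), and leaving out any pool but control pool 2 ended the call, with adjusted p of 0.061 without mutant pool 1, 0.102 without mutant pool 2, 0.0646 without mutant pool 3, 0.0947 without control pool 1 and 0.0825 without control pool 3. Inha, which encodes the alpha subunit that turns an activin into an inhibin, had 8.11, 9.43 and 9.78 CPM in mutant pools, against 8.36, 9.99 and 9.47 CPM in control pools. Its groups overlapped widely and its log2 fold change of -0.024 (95% interval -0.30 to 0.25) was not called. Inhba, the subunit gene of activin A, was scarce, at 0.895 ± 0.217 CPM in mutants and 0.801 ± 0.526 CPM in controls (SD, n = 3 each).

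The ligand gene with the most reads was not among the called ones. Bmp7 had 89.98, 101.4 and 101.2 CPM in mutant pools, against 86.5, 87.6 and 92.0 CPM in control pools. Mutant pool 1 fell within the control range, and the log2 fold change of 0.14 (SE 0.0579, edgeR adjusted p = 0.215) had a 95% interval of 0.0059 to 0.27. Bmp2 and Bmp4, which encode the ligands most often used to study the BMP branch, read 3.70 ± 0.346 and 15.5 ± 2.52 CPM in mutants, and 2.56 ± 0.214 and 12.02 ± 2.69 CPM in controls (SD, n = 3 each). Neither was called, at log2 fold changes of 0.53 (SE 0.174) for Bmp2 and 0.37 (SE 0.174) for Bmp4. Gdf11, a ligand gene known in mice to limit the number of endocrine progenitors, had 20.4, 23.1 and 22.6 CPM in mutant pools, against 25.4, 27.2 and 25.2 CPM in control pools. The mutant pools were all lower, but the log2 fold change of -0.24 (SE 0.0758, edgeR adjusted p = 0.104) was not called. Bmp8b was not called either.

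**Figure D2:**
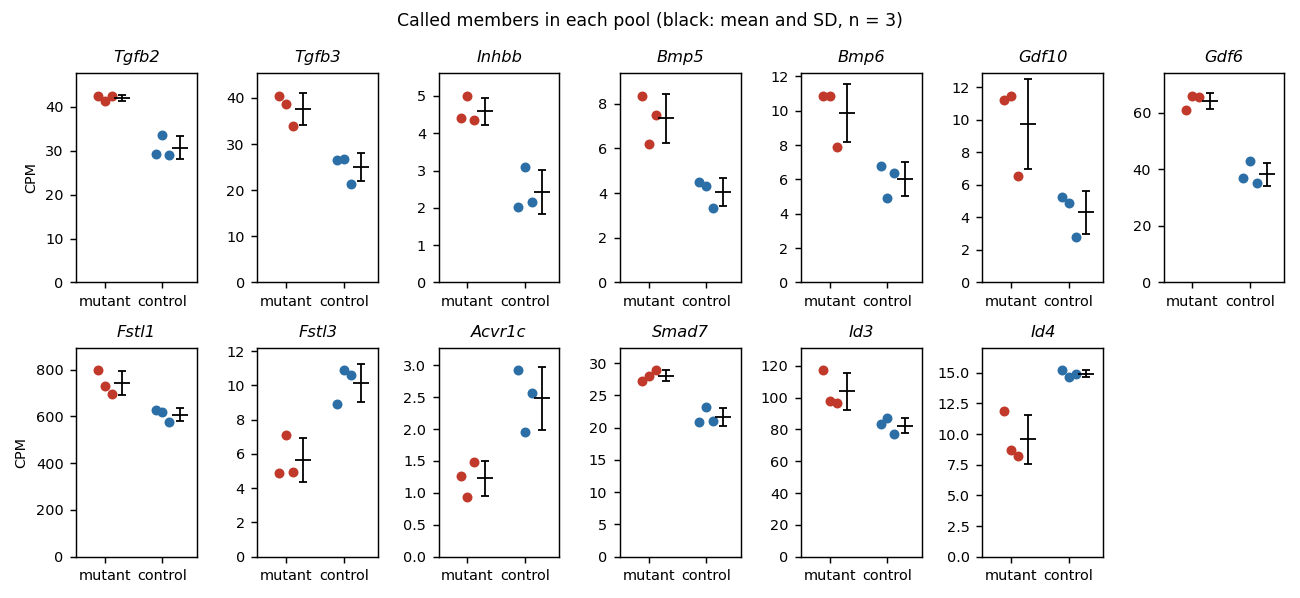
CPM of 13 called members in each pool, mutant pools on the left of each panel and control pools on the right, with the mean and SD of 3 pools in black and every axis starting at 0. Within each panel the 2 groups do not overlap, and mutant pool 3 of Gdf10 (6.52 CPM) stands below the other mutant pools (11.2 and 11.5 CPM).

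The other 13 ligand genes were below the read filter. Gdf1 and Inhbe were at 0 in every pool, and all of the annotated exon of Gdf1 lies within that of Cers1 on the same strand, where reads of the 2 genes cannot be told apart. Bmp10, Bmp15, Bmp8a, Gdf2, Gdf3, Gdf5, Gdf7, Gdf15 and Inhbc had at most 9 reads in any pool, Gdf9 at most 13 and Bmp3 at most 28. For these genes a difference was not detectable at this depth.

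Levels of different genes were compared as CPM per kilobase of annotated exon. On this scale Bmp7 made up 27.8 ± 1.26% of the summed level of the ligand genes in mutants and 32.9 ± 2.47% in controls (SD, n = 3 each; Inha left out of the sum because its product antagonizes activins). Gdf6 came next, at 20.8 ± 0.463% in mutants and 16.1 ± 0.809% in controls, followed by Tgfb3 at 12.8 ± 1.32% in mutants and 11.0 ± 1.10% in controls. Gdf11 made up 6.21 ± 0.258% in mutants and 9.52 ± 0.119% in controls. The sum over the ligand genes itself was 84.9, 89.6 and 87.4 CPM per kilobase in mutant pools, against 65.4, 71.5 and 64.6 CPM per kilobase in control pools. Thus the summed ligand level was higher in each mutant pool, while Bmp7 and Gdf11 held smaller shares of it and Gdf6 a larger one. Shares of a sum depend on each other, and the sum follows from the values above, so no test was made.

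**Figure D3:**
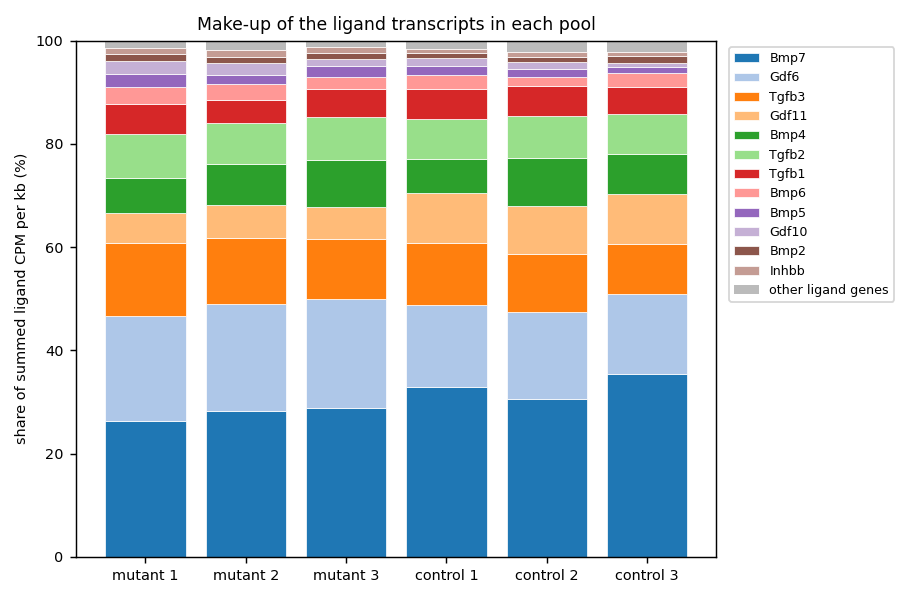
Share of each ligand gene in the summed ligand level (CPM per kilobase of exon, percent) in each pool, mutant pools on the left and control pools on the right. Bmp7 fills the largest part of every bar, at 26.4 to 28.8% in mutant pools and 30.5 to 35.4% in control pools, and Gdf6 the second, at 20.3 to 21.2% in mutant pools and 15.4 to 17.0% in control pools.

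Most receptor genes differed by small amounts between the groups. Of 12 receptor and co-receptor genes, all tested, 1 was called lower and 0 higher, beside 4.28% lower and 3.67% higher among all tested genes. The log2 fold changes of the other 11 ran from -0.14 to 0.36. In 6 of the 12 the mutant and control values did not overlap, beside 26.4% of all tested genes. Acvr1c (chromosome 2, 58267453 to 58357895, minus strand) encodes ALK7, a type I receptor for nodal and activin B that is known from islets and adipose tissue. It had 1.26, 0.943 and 1.49 CPM in mutant pools, against 2.93, 1.95 and 2.57 CPM in control pools. All mutant pools were lower, at a log2 fold change of -1.01 (SE 0.259, edgeR adjusted p = 0.048), and the gene had few reads, 16 to 49 per library. Its call was lost with DESeq2 (adjusted p = 0.0909) and limma voom (0.0555), and without mutant pool 1 (0.117), mutant pool 2 (0.1655), mutant pool 3 (0.0713), control pool 1 (0.157) or control pool 3 (0.119).

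Per kilobase of exon, the 2 most abundant receptor genes were Bmpr1a, the main type I receptor gene of the BMP branch, at 48.6 ± 1.66 in mutants and 46.2 ± 0.794 in controls, and Tgfbr1, the type I receptor gene of TGF-beta, at 42.5 ± 0.904 in mutants and 41.6 ± 0.572 in controls (CPM per kilobase, SD, n = 3 each). Bmpr1a had 320.1, 299.7 and 306 CPM in mutant pools, against 296, 287 and 296 CPM in control pools. Its groups did not overlap, yet the difference was small, at a log2 fold change of 0.073 (95% interval -0.018 to 0.16), and was not called. Tgfbr2, the type II receptor gene of TGF-beta, had 137, 119 and 123 CPM in mutant pools, against 129, 123 and 107 CPM in control pools, with overlap and a log2 fold change of 0.082 (95% interval -0.091 to 0.25). The co-receptor gene Tgfbr3, encoding betaglycan, had 109, 97.5 and 104 CPM in mutant pools, against 104, 93.0 and 88.9 CPM in control pools, again with overlap and a log2 fold change of 0.12 (95% interval -0.033 to 0.27). Acvr2a, an activin type II receptor gene, was lower in each mutant pool by a small amount, at 81.8 ± 1.91 CPM in mutants and 90.3 ± 2.20 CPM in controls, and was not called (log2 fold change -0.14, edgeR adjusted p = 0.0973). Acvrl1 read 31.3 ± 3.34 CPM in mutants and 26.4 ± 1.83 CPM in controls (SD, n = 3 each). Bmpr1b read 8.05 ± 0.418 CPM in mutants and 6.27 ± 0.126 CPM in controls. Both of these type I receptor genes were higher in each mutant pool and were not called. Their log2 fold changes were 0.24 (95% interval 0.034 to 0.45) for Acvrl1 and 0.36 (95% interval 0.10 to 0.62) for Bmpr1b.

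The SMAD genes that carry the signal were not called in either direction. Their 6 log2 fold changes lay between -0.065 and 0.27, with 3 above and 3 below 0, and the smallest adjusted p was 0.567. Smad5, the most abundant of them, had 416, 400.3 and 456 CPM in mutant pools, against 449, 468 and 414 CPM in control pools. The groups overlapped, at a log2 fold change of -0.065 (95% interval -0.21 to 0.075). Smad4, the common partner, read 154 ± 6.23 CPM in mutants and 156 ± 5.24 CPM in controls (SD, n = 3 each), a log2 fold change of -0.011 (95% interval -0.12 to 0.094). Smad9, at 4.76 ± 1.17 CPM in mutants and 3.95 ± 0.806 CPM in controls, was measured less precisely (95% interval -0.24 to 0.77). Of the 18 receptor, co-receptor and signal-carrying SMAD genes, 15 had a 95% interval that lay wholly within 0.5 log2 of no change, and the exceptions were Acvr1c, Bmpr1b and Smad9.

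**Figure D4:**
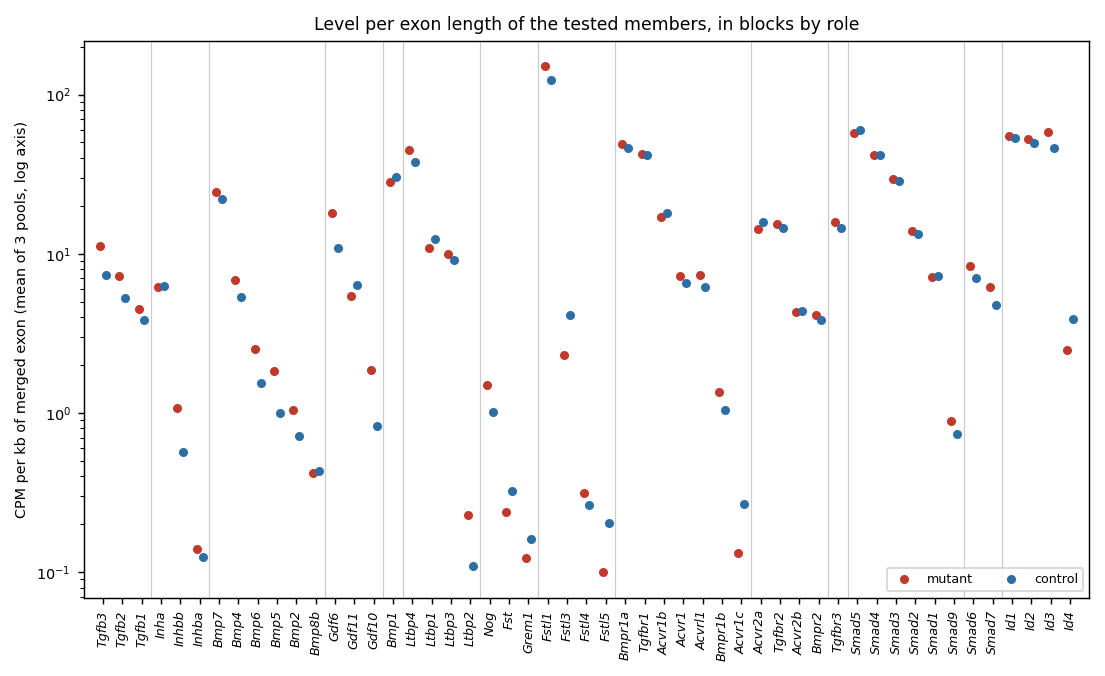
Mean CPM per kilobase of annotated exon (log axis, n = 3 pools each) of 51 tested members in blocks by role, mutant on the left and control on the right of each pair. Fstl1 has the highest level, at 151 in mutants and 124 in controls, and the pairs for Bmpr1a, Tgfbr1 and Smad4 nearly coincide, while those for Acvr1c and Gdf10 are far apart.

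Inhibitory SMADs block the type I receptors and are themselves induced by the pathway, as negative feedback. Smad7, which acts on both branches, had 27.2, 28.0 and 29.0 CPM in mutant pools, against 20.8, 23.3 and 21.0 CPM in control pools. The groups were clearly apart, at a log2 fold change of 0.37 (SE 0.0718, edgeR adjusted p = 0.015). Leaving out mutant pool 2 (adjusted p = 0.0618), mutant pool 3 (0.0677), control pool 1 (0.0687) or control pool 3 (0.055) ended the call, while the log2 fold change stayed between 0.34 and 0.42. Smad6, which prefers the BMP branch, read 26.8 ± 0.855 CPM in mutants and 22.7 ± 2.11 CPM in controls (SD, n = 3 each). Its groups did not overlap, and its log2 fold change of 0.24 (SE 0.082, edgeR adjusted p = 0.122) was not called.

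The Id genes encode helix-loop-helix proteins without a DNA-binding region, which bind E proteins and keep them from DNA. The 4 genes of the family did not move together. Id1 had 68.2, 63.8 and 59.8 CPM in mutant pools, against 61.1, 61.7 and 62.4 CPM in control pools, and Id2 had 136, 128 and 119 CPM in mutant pools, against 124, 113 and 124 CPM in control pools. In both the groups overlapped, and the log2 fold changes were 0.051 (95% interval -0.081 to 0.18) for Id1 and 0.083 (95% interval -0.056 to 0.22) for Id2.

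Id3 (chromosome 4, 136143497 to 136145755, plus strand) had 117, 98.0 and 96.4 CPM in mutant pools, against 83.2, 86.9 and 77.3 CPM in control pools. Each mutant pool was above each control pool, and mutant pool 1 was the highest. edgeR put the log2 fold change at 0.33 (SE 0.0806, edgeR adjusted p = 0.038). This call was lost with total-count scaling (adjusted p = 0.0501) and without mutant pool 1 (0.0729), mutant pool 2 (0.0671), control pool 1 (0.110) or control pool 3 (0.112). Id4 (chromosome 13, 48261228 to 48266026, plus strand), whose promoter window is printed above, had 11.9, 8.66 and 8.24 CPM in mutant pools, against 15.2, 14.6 and 14.9 CPM in control pools. The control values were nearly equal, and the highest mutant pool was still below them. The log2 fold change was -0.64 (SE 0.14, edgeR adjusted p = 0.0259), and the call was lost without mutant pool 2 (adjusted p = 0.0989), mutant pool 3 (0.0834), control pool 1 (0.0878) or control pool 3 (0.0629). Within a library the ratio of Id genes needs no scaling: there were 0.101, 0.0883 and 0.0855 reads of Id4 per read of Id3 in mutant pools, against 0.183, 0.168 and 0.193 in control pools. For Id3 per read of Id1 the ratio was 1.72, 1.54 and 1.61 in mutant pools and 1.36, 1.41 and 1.24 in control pools. Reads of Id2 per read of Id1 overlapped between the groups, at 1.99, 2.01 and 1.98 in mutant pools and 2.03, 1.83 and 2.00 in control pools. The ratios that contain Id3 or Id4 follow from the values above and are no separate support, so no test was made.

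Among the secreted inhibitors, 3 scarce genes were measured with wide error. Noggin (Nog) and gremlin 1 (Grem1) bind BMPs, and follistatin (Fst) binds activins. None of these 3 was called: Nog read 2.53 ± 0.809 CPM in mutants and 1.71 ± 0.318 CPM in controls, Fst 1.10 ± 0.747 CPM in mutants and 1.48 ± 0.357 CPM in controls, and Grem1 0.512 ± 0.127 CPM in mutants and 0.672 ± 0.291 CPM in controls (SD, n = 3 each).

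Follistatin-like genes moved in both directions. Fstl1 (chromosome 16, 37776873 to 37836514, plus strand) encodes a secreted glycoprotein abundant in mesenchyme, and it had 799, 731 and 696 CPM in mutant pools, against 627, 619 and 578 CPM in control pools. There was no overlap, and the log2 fold change was 0.29 (SE 0.0613, edgeR adjusted p = 0.0231). The call was lost without mutant pool 1 (adjusted p = 0.061), mutant pool 2 (0.0792), control pool 1 (0.0618) or control pool 3 (0.063). Fstl3 (chromosome 10, 79777272 to 79782630, plus strand) encodes a follistatin-like inhibitor of activins and myostatin. It had 4.90, 7.13 and 4.92 CPM in mutant pools, against 8.90, 10.9 and 10.6 CPM in control pools. All mutant pools lay below all control pools, at a log2 fold change of -0.84 (SE 0.171, edgeR adjusted p = 0.0186), and the call was lost without mutant pool 1 (adjusted p = 0.0595), mutant pool 3 (0.0678) or control pool 3 (0.0541). Of the annotated exon of Fstl3, 47.3% overlaps Prss57 on the other strand, which had 4 to 6 reads in mutant pools and 0 to 2 in control pools. Without a stated strand setting, reads of this stretch cannot be told apart. Fstl5 had 0.755, 0.471 and 1.54 CPM in mutant pools, against 1.61, 1.77 and 2.28 CPM in control pools, with no overlap, and was called only without mutant pool 3 (log2 fold change -1.62, adjusted p = 0.0412; -1.02 and 0.167 with all pools).

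Latent TGF-beta binding proteins hold TGF-beta in the matrix in an inactive form, a role that Ltbp2 is not known to share. None of the 4 genes was called, and their smallest adjusted p was 0.169. Ltbp4 had 341, 266 and 262 CPM in mutant pools, against 253, 287 and 193 CPM in control pools, with overlap and a log2 fold change of 0.25 (95% interval -0.078 to 0.57). Ltbp2 had 2.45, 2.30 and 0.858 CPM in mutant pools, against 0.716, 1.04 and 0.935 CPM in control pools. Mutant pool 3 fell among the controls, and Ltbp2 was called only when that pool was left out (log2 fold change 1.40, adjusted p = 0.0284; 1.05 and 0.169 with all pools). Bmp1, which despite its name encodes a protease that trims procollagens and frees BMPs from chordin, had 254, 234 and 259 CPM in mutant pools, against 269, 294 and 249 CPM in control pools. Its pools overlapped, at a log2 fold change of -0.12 (95% interval -0.27 to 0.027).

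Of 71 other genes of the pathway, chosen by role, 58 were tested, 7 were called higher and 1 lower, beside 3.67% higher and 4.28% lower among all tested genes, and their median log2 fold change was 0.028. The called ones stood among genes that act outside the cell. In the list of latency and matrix storage genes, 5 of 11 were called higher and 0 lower, namely the fibrillin genes Fbn1 and Fbn2, the integrin gene Itgb6, the thrombospondin gene Thbs1 and the proteoglycan gene Bgn. Fbn1, whose microfibrils anchor latent TGF-beta, had 451, 388 and 406 CPM in mutant pools, against 303, 334 and 298 CPM in control pools, with no overlap (log2 fold change 0.41, SE 0.0648, edgeR adjusted p = 0.00578). Thbs1, encoding an activator of latent TGF-beta, had 143, 142 and 146 CPM in mutant pools, against 104, 123 and 99.2 CPM in control pools, also apart (log2 fold change 0.40, edgeR adjusted p = 0.0123; 0.0604 without control pool 1). The log2 fold changes of Fbn2, Itgb6 and Bgn were 0.29, 0.56 and 0.22. Fbn2 lost its call without any pool but control pool 2, with adjusted p from 0.0508 without mutant pool 3 to 0.1495 without control pool 1, and with total-count scaling (0.056). Itgb6 and Bgn lost theirs without mutant pool 1, mutant pool 2, control pool 1 or control pool 3, with adjusted p of 0.0913 to 0.138 and 0.0607 to 0.0879.

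Among 16 other extracellular antagonists and modulators, 13 were tested. Chrdl1, encoding the BMP inhibitor chordin-like 1, had 25.0, 20.8 and 21.6 CPM in mutant pools, against 13.0, 13.2 and 12.9 CPM in control pools. The control values were almost identical and well below the mutant ones (log2 fold change 0.79, SE 0.0929, edgeR adjusted p = 0.00147). Cer1, encoding cerberus, an inhibitor of nodal and BMP ligands, had 1.57, 1.24 and 1.77 CPM in mutant pools, against 6.69, 3.59 and 6.72 CPM in control pools. It was thus lower in mutants by 3.70-fold (log2 fold change -1.89, SE 0.283, edgeR adjusted p = 0.00483). Both calls held under every alternative. Of 14 textbook target genes, 11 were tested and 1 was called: Ctgf, encoding a matrix protein induced by TGF-beta, had 16.6, 15.3 and 12.8 CPM in mutant pools, against 10.2, 10.8 and 10.2 CPM in control pools (log2 fold change 0.51, SE 0.116, edgeR adjusted p = 0.0294). The Ctgf call was lost without mutant pool 1 (adjusted p = 0.0899), mutant pool 2 (0.102), control pool 1 (0.0978) or control pool 3 (0.0828). The other tested targets, among them Msx1 and Atoh8, were not called, and Msx2, Dlx5 and Cdkn2b were below the read filter. The 16 tested intracellular regulators, such as the ubiquitin ligase gene Smurf1 and the corepressor gene Ski, included no called gene, and their log2 fold changes lay between -0.12 and 0.16. The 6 tested co-receptor and pseudoreceptor genes and the 1 tested ligand gene outside the family rule, Lefty1, were not called either.

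**Figure D5:**
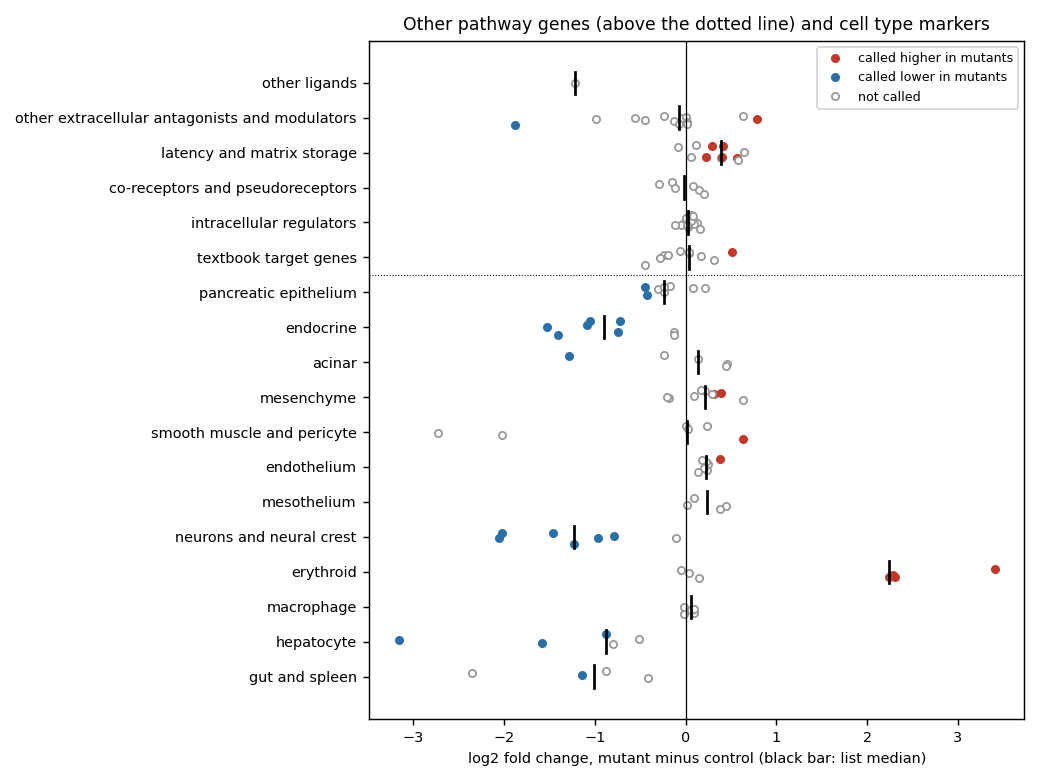
Log2 fold change, mutant minus control, of other pathway genes (above the dotted line) and of cell type markers (below it), 1 point per gene, coloured by call, with a black bar at each list's median. The intracellular regulators cluster at 0, the latency and matrix storage genes lie mostly above it, and the neural and endocrine markers lie below it.

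Markers of several cell types differed between the same pools. Over all tested genes, 3.67% were called higher and 4.28% lower. In the mesenchyme list, 2 of 9 tested genes were called higher, Col1a1 and Barx1, and 0 lower, with a median log2 fold change of 0.21 and a summed level of 8931 to 10229 CPM in mutant pools and 7939 to 8227 CPM in control pools. Most of this sum came from the collagen genes Col1a1, Col1a2 and Col3a1. In this list 7 log2 fold changes were above 0 and 2 below, those of Nkx3-2 (-0.18) and Foxf1a (-0.21), neither of them called. In the endothelium list, 1 of 7 was called higher, with a median of 0.23 and a sum of 637 to 817 CPM in mutant pools and 564 to 640 CPM in control pools. In the pancreatic epithelium list, 2 of 8 were called lower, with a median of -0.24 and a sum of 1313 to 1440 CPM in mutant pools and 1483 to 1818 CPM in control pools. In the endocrine list, 6 of 8 were called lower, with a median of -0.90 and a sum of 1242 to 1349 CPM in mutant pools and 1745 to 2320 CPM in control pools. In the list of neurons and neural crest, 6 of 7 were called lower, with a median of -1.23 and a sum of 54.9 to 57.7 CPM in mutant pools and 95.3 to 139 CPM in control pools. Of the erythroid markers, 4 of 7 were called higher, with a sum of 1623 to 2404 CPM in mutant pools and 1442 to 2297 CPM in control pools, and of the hepatocyte markers 3 of 5 were called lower, with a sum of 174 to 206 CPM in mutant pools and 329 to 471 CPM in control pools.

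In the remaining lists, 1 of 6 smooth muscle and pericyte genes, Cspg4, was called higher, and 1 of 5 acinar genes and 1 of 4 gut and spleen genes were called lower, while 0 of 6 macrophage and 0 of 4 mesothelium genes were called. The shares over all tested genes were again 3.67% higher and 4.28% lower. The smooth muscle and pericyte sum was 250.1 to 268 CPM in mutant pools and 196 to 352 CPM in control pools, and the acinar sum 3117 to 4257 CPM in mutant pools and 1880 to 4042 CPM in control pools. The gut and spleen sum was 31.2 to 55.2 CPM in mutant pools and 52.8 to 79.7 CPM in control pools. The macrophage sum was 156 to 174 CPM in mutant pools and 144 to 168 CPM in control pools, and the mesothelium sum 191 to 255 CPM in mutant pools and 179 to 211 CPM in control pools. The only listed marker at 0 in every pool was the amylase gene Amy2a5. The part of these markers in the results for the signalling genes was not tested.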

How the data were processed

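RNA was extracted from pools of 5 to 6 embryonic pancreata and sequenced as mRNA libraries, 1 per pool. The authors deposited raw read counts per gene symbol for each library. Cutadapt 1.13, STAR, HTSeq 0.6.1p1 and DESeq2, with build mm10, are named in the submitters' processing notes. For the annotation, the strand setting and the STAR version: not given in the sources used here.

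The counts were tested with edgeR 4.0.16 (R 4.3.3): filterByExpr with a minimum count of 10, TMM scaling and the quasi-likelihood F test on genotype over all 6 libraries, with Benjamini-Hochberg adjustment over 14687 genes. A gene was called at an adjusted p under 0.05. Each SE was derived from the fold change and its F statistic, and intervals are 95%. CPM are counts scaled to the TMM-adjusted library size, and levels per kilobase use merged exons of GENCODE M21. The fit was tested on simulated counts. DESeq2 1.42.0, limma 3.58.1 voom, other scalings and filters, the replicate number as a block and fits without single pools were alternatives. Numbers shared between the groups do not pair the pools in the labels.

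Members and gene lists were chosen with earlier results of these data known. Values in every pool are given for each called member, each member called under an alternative, the member with the highest mean CPM in each role, and Id1 to Id4. They are also given for called genes of the other pathway lists, except Fbn2, Itgb6 and Bgn. Tgfb1, Inhba, Bmp2, Bmp4, Gdf11, Tgfbr1, Acvr2a, Acvrl1, Bmpr1b, Smad4, Smad6 and Smad9 and the uncalled inhibitor genes were added after their values were seen. Not every gene behind the totals is reported here.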

Additional observations from a re-analysis of the deposited data

How the results depend on the processing

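Of the 14 called members, 4 kept the call under all 16 alternatives (Gdf6, Tgfb2 and Tgfb3 among them) and 0 changed sign. The number called higher was 11, and 4 to 10 when 1 pool was left out. The number called lower was 3, and 0 to 3 when 1 pool was left out. Without both pools of almost no Xist reads, 4 were called higher and 1 lower. Over all genes, 539 were called higher, and 282 to 696 without 1 pool or 315 without both. Of all genes 628 were called lower, and 343 to 725 without 1 pool or 350 without both. Other pathway genes called higher numbered 7, and 2 to 9 without 1 pool or 2 without both, and those called lower numbered 1, and 1 to 3 without 1 pool, 2 without both and 2 with no filter. Without control pool 2 the counts over all genes were larger, at 696 higher and 725 lower. Fewer pools leave fewer residual degrees of freedom, and the part of this in the counts was not tested.

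Under the 16 alternatives, changes of sign were confined to members that were not called. With limma voom Acvr2b stood at 0.0040. Without both pools of almost no Xist reads the log2 fold changes were 0.013 for Acvr2b, 0.14 for Bmp8b, 0.17 for Grem1, 0.064 for Inha, -0.011 for Inhba, -0.032 for Ltbp4, -0.078 for Smad9 and -0.055 for Tgfbr2. Leaving out 1 pool gave -0.10 to 0.15 for Acvr2b, -0.22 to 0.18 for Bmp8b, -0.63 to 0.0046 for Grem1, -0.094 to 0.051 for Inha, -0.14 to 0.82 for Inhba, -0.066 to 0.012 for Smad1 and -0.035 to 0.022 for Smad4. The cause was not tested.

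With the replicate block, 10 members were called higher and 3 lower, and 576 genes higher and 562 lower in all. The block ended the calls of Bmp6 (adjusted p = 0.0507) and Fbn2 (adjusted p = 0.0657), and no other call of a member or listed pathway gene. Deviations of same-numbered pools correlated at 0.138, 0.101 and -0.0497, and those of differently numbered pools at -0.234 to 0.159. Not every pool correlated best with its own number. The labels state no pairing, and so few pools cannot show whether any exists. Acvr1c, Fst, Grem1 and Inhba had few reads, and their folds are imprecise.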
